A study of Homo sapiens with 6 samples.

Results

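Genes of antigen presentation by MHC class II and the factors that switch them on were followed in a myeloid cell line before and after it was made to express PLZF-RARA. The group held 9 genes: the class II transactivator CIITA, the DNA-binding factors RFX5, RFXAP and RFXANK, the class II chains HLA-DRA and HLA-DPA1, the peptide editor chains HLA-DMA and HLA-DMB, and the invariant chain CD74. Every probe set that the platform annotation assigns to 1 of these symbols and to no other was taken, which gave 18 of the 54675 probe sets on the array, for 9 of the 19775 genes that have a probe set of their own. No further probe set named a member together with another gene. The cells were U937T:PLZF-RARa, made from the established human line U937, which is of the monocyte lineage, and engineered to make the fusion of ZBTB16 (PLZF) and RARA when tetracycline is withdrawn. All cultures were kept with puromycin and G418. The 3 uninduced samples, labelled 48 h, had tetracycline at 0.1 ug/ml, and the 3 induced samples were cultured for 48 h without it, so the groups differ in the drug as well as in the fusion. Each sample was hybridised to its own Affymetrix HG-U133 Plus 2.0 array. The labels do not say whether the line is a single clone or whether replicates were separate cultures, so the p-values reflect how far these 6 samples scatter, which may be technical, and precision is limited by the number of arrays. Drug withdrawal and fusion cannot be told apart, and in bulk RNA neither can fewer cells with a transcript and less of it per cell.

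MHC class II molecules are pairs of an alpha and a beta chain that show peptides from the endosome to CD4 T cells. The invariant chain CD74 occupies the peptide groove of newly made class II molecules and guides them to the endosome, where HLA-DM, made of HLA-DMA and HLA-DMB, helps to exchange the last fragment of it for a peptide. Their promoters share an X box, bound by the complex of RFX5, RFXAP and RFXANK, and a Y box, bound by NF-Y. CIITA does not bind DNA itself but is recruited by these factors and is the limiting switch in most cells, induced in macrophages by interferon gamma. U937 belongs to the monocytic lineage, in which class II genes are expressed at levels that vary with differentiation and activation.

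Values are log2 of the deposited intensity, and only probe sets with a log2 value above 4 (an intensity of 16) on 3 or more arrays were tested. The groups were compared with limma over all tested probe sets, and "rose" and "fell" are used for a Benjamini-Hochberg adjusted p under 0.05. Levels of different probe sets are not comparable, because each set of probes has its own response. Of the 18 probe sets 9 were tested, for 7 of the 9 genes, while 37.6% of all probe sets on the array were tested. The other 9 lay below the filter on every array, among them all those of CIITA and HLA-DRA. Of the 9 tested, 1 rose and 4 fell, where 34.6% of all tested probe sets rose and 27.9% fell. The 4 that fell stand for 3 genes, since RFXAP has 2 of them. The groups did not overlap for 6 of the 9, against 70.2% of all tested probe sets. The median log2 difference, induced minus uninduced, was -0.25 over the 9 probe sets and 0.03 over all 20552 tested, and the median absolute difference was 0.32 and 0.40. In both directions together 5 of the 9 were called, where 62.5% of all tested probe sets were, so the number of calls among the members is near the background and is no result about them as a group.

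**Figure D1:**
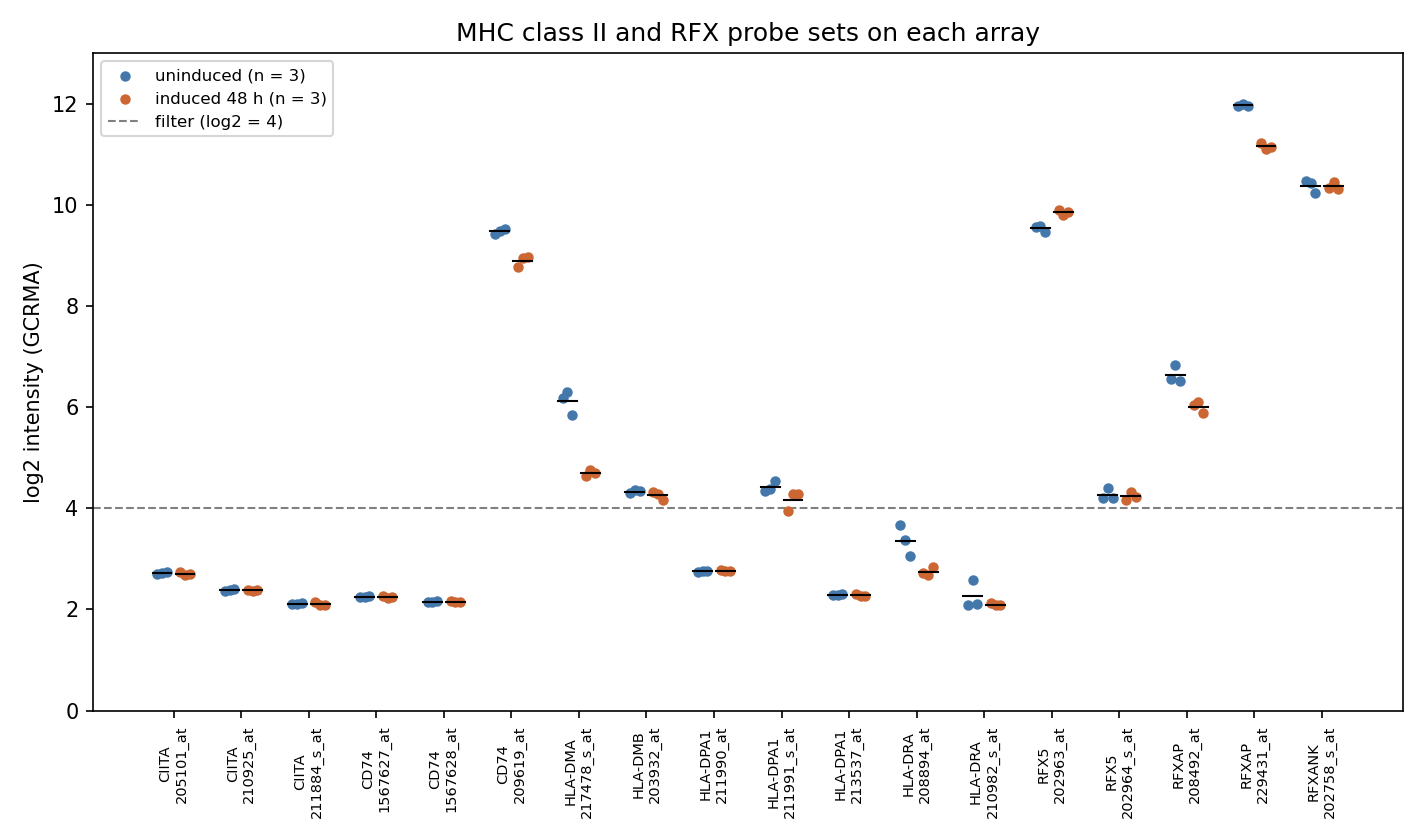
Each point is 1 array, with log2 intensity on the vertical axis and the 18 probe sets along the horizontal axis; uninduced and induced arrays (3 each) stand side by side, black bars mark group means and the dashed line marks the filter at a log2 value of 4. The probe sets of CIITA and HLA-DRA lie below the line on all arrays, HLA-DMA falls from 6.11 to 4.70, and CD74 209619_at and both RFXAP probe sets also drop without overlap.

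The probe sets of the fusion's partner genes differed between the groups in both directions. RARA probe set 211605_s_at read 1.81 to 1.99 on the uninduced and 7.40 to 7.73 on the induced arrays. RARA 203749_s_at fell from 5.16 to 3.99 (limma, adjusted p = 1.10e-05) and the single ZBTB16 probe set tested, 205883_at, from 5.25 to 3.29 (adjusted p = 8.12e-04). RARA 203750_s_at and 216300_x_at did not pass, and 1565358_at was below the filter. Which of these probe sets lie in the fusion transcript was not analysed here. Arrays of 1 group correlated at r = 0.9963 to 0.9976 across the tested probe sets, which are not independent. The difference between the 3' and 5' probe sets of the GAPDH control was 0.50 ± 0.025 in uninduced and 0.58 ± 0.034 in induced samples (SD, n = 3 each; two-sided exact permutation p = 0.1, the smallest that 3 against 3 allows). The ACTB means lay in the same order, at 1.25 ± 0.083 and 1.41 ± 0.10 (two-sided exact permutation p = 0.2). The part of these 3' shifts in the results below was not tested. Of 10 myeloid markers 8 had a probe set of their own and 4 were tested. Of those tested, ITGAM and CD4 rose and LYZ and CSF3R fell. The summed level of all 8, most of it LYZ, was 14.01 to 14.09 in uninduced and 13.18 to 13.37 in induced samples. LYZ (lysozyme) read 13.98 and 13.13 and CSF3R 8.10 and 7.47 in uninduced and induced samples, whereas CD14, CSF1R, MPO and FCGR1A were below the filter in both groups. Only a part of this myeloid list thus gave signal above the filter. Markers of other cells that present antigen or contact them were almost all below the filter. Of the genes that had a probe set of their own, 0 of 9 dendritic cell markers and 0 of 7 T cell markers were tested, and of 6 B cell markers 1 was, PAX5, which read 4.90 and 4.76 and did not pass. CD79B, which fails the filter, read 2.81 in uninduced and 4.12 in induced samples, chosen here after its values were seen. The summed B cell marker level was 6.14 to 6.17 in uninduced and 6.22 to 6.31 in induced samples, that of dendritic cells 5.70 to 5.76 and 5.69 to 5.73, and that of T cells 5.13 to 5.17 and 5.18 to 5.21 (log2 of the sum of intensities). The dendritic and T cell sums consist of readings below the filter only. The part of the marker shifts in the members' values was not tested.

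CIITA signal was at the floor of the measurement in both states. Probe set 205101_at read 2.70, 2.71 and 2.74 on the uninduced arrays and 2.74, 2.68 and 2.70 on the induced arrays. The other CIITA probe sets, 210925_at and 211884_s_at, lay between 2.08 and 2.40 on all 6 arrays. The uninduced and induced values overlapped in all 3 probe sets, and with both groups below the filter neither a fold nor a call is given. A change of CIITA below this limit was not detectable with these probes.

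The RFX complex changed unevenly: RFXAP fell, RFX5 rose slightly in 1 of its 2 probe sets, and RFXANK did not pass the test. RFXAP, a subunit whose inherited loss abolishes class II expression, read 11.95, 11.99 and 11.95 on uninduced and 11.22, 11.11 and 11.15 on induced arrays with probe set 229431_at. The 3 induced arrays all lay below the 3 uninduced ones. The group means were 11.96 ± 0.026 and 11.16 ± 0.057 (SD, n = 3 each), a 1.75-fold fall (log2 difference -0.80, 95% confidence interval -0.95 to -0.66; limma, adjusted p = 3.51e-05). The dimmer RFXAP probe set 208492_at read 6.55, 6.84 and 6.52 and then 6.03, 6.10 and 5.89, again without overlap. It fell 1.55-fold, by a log2 difference of -0.63 (-0.88 to -0.38; adjusted p = 0.00171). Both RFXAP probe sets thus moved down, and of all tested probe sets 10.9% and 14.8% had a lower difference than these. With 64 added to each intensity before the logarithm, which damps dim signals, 208492_at fell by 0.35 on the log2 scale (adjusted p = 0.00309).

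RFX5, the subunit that contacts the X box through its winged-helix domain, rose in probe set 202963_at. This probe set read 9.56, 9.59 and 9.46 on uninduced and 9.89, 9.81 and 9.86 on induced arrays. The groups did not overlap, and the rise was 1.25-fold (log2 difference 0.32, interval 0.16 to 0.47; limma, adjusted p = 0.00430). RFX5 probe set 202964_s_at, close to the filter, read 4.20, 4.40 and 4.20 and then 4.17, 4.32 and 4.23, and the groups overlapped. Its difference was -0.03 (-0.22 to 0.16; adjusted p = 0.753), so the rise of RFX5 rests on the brighter probe set.

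RFXANK, the ankyrin-repeat subunit, read 10.47, 10.42 and 10.24 on uninduced and 10.34, 10.45 and 10.32 on induced arrays. The values interleaved, with a difference of -0.01 and an interval from -0.21 to 0.19 (limma, adjusted p = 0.940). A change within that interval cannot be told from none with these arrays. The unequal change of the subunits was compared within each array, for pairs chosen after the values were seen. The log2 value of RFXAP 229431_at minus that of RFXANK was 1.47 to 1.71 on the uninduced and 0.66 to 0.88 on the induced arrays, and minus that of RFX5 202963_at it was 2.38 to 2.49 and 1.28 to 1.33. Neither pair overlapped between groups. For RFXAP and RFX5 this was fixed beforehand, since their values had already separated in opposite directions. Each of the 4 pairs compared in this way gave a two-sided exact permutation p of 0.1, and 0.1 after Benjamini-Hochberg adjustment over the 4 pairs, the smallest that 3 against 3 allows.

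**Figure D2:**
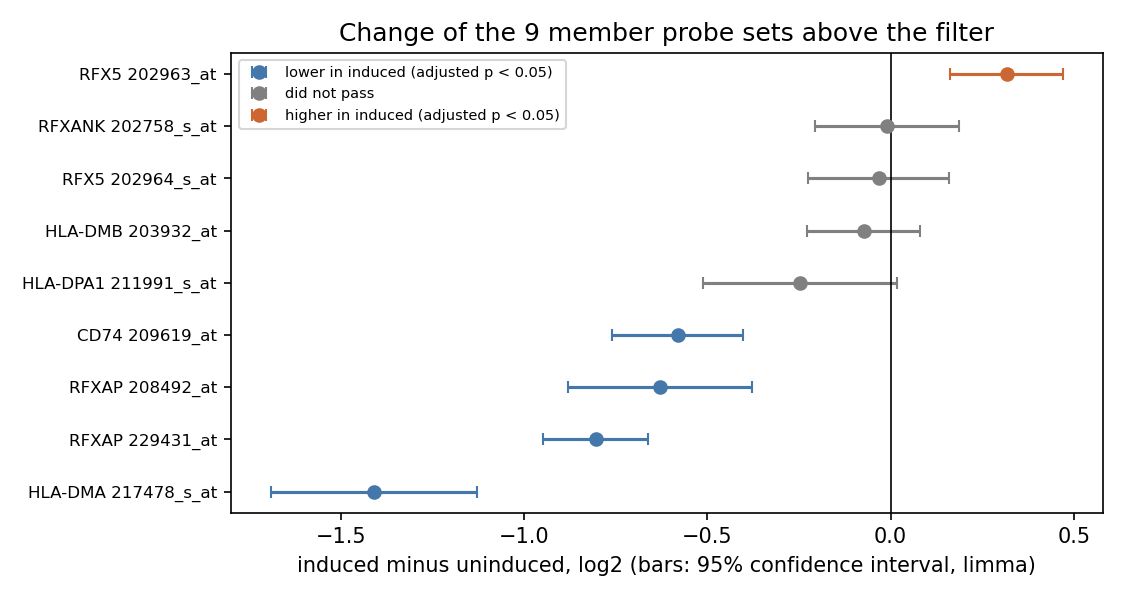
Points give the log2 difference, induced minus uninduced, of the 9 tested probe sets and bars its 95% confidence interval from limma; colours mark probe sets that rose, fell or did not pass at an adjusted p under 0.05. HLA-DMA has the most negative difference (-1.41), CD74 and both RFXAP probe sets lie between -0.80 and -0.58, and RFX5 202963_at is alone above 0 with its interval.

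Among the class II genes themselves, HLA-DMA and CD74 fell, and HLA-DMB and HLA-DPA1 did not pass the test. HLA-DMA had the largest log2 difference among the members tested, though not with 64 added to each intensity. Its probe set 217478_s_at read 6.19, 6.30 and 5.85 on uninduced and 4.65, 4.76 and 4.70 on induced arrays, all above the filter. The lowest uninduced array lay more than 1 log2 unit above the highest induced one. The means were 6.11 ± 0.23 and 4.70 ± 0.058 (SD, n = 3 each), a 2.66-fold fall (log2 difference -1.41, interval -1.69 to -1.13; limma, adjusted p = 5.85e-05). Of all tested probe sets 3.91% had a lower difference. With 64 added the difference was -0.57 (adjusted p = 2.96e-04), smaller than that of RFXAP 229431_at at -0.79, so the size and rank of this fall depend on how dim signals are treated.

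HLA-DMB, the partner chain and next protein-coding gene to HLA-DMA in RefSeq's gene order on chromosome 6, was measured just above the filter. Its probe set 203932_at read 4.30, 4.36 and 4.33 on uninduced and 4.32, 4.29 and 4.17 on induced arrays, and the groups overlapped. The difference was -0.07 (-0.23 to 0.08; limma, adjusted p = 0.361). After quantile normalization it was -0.22 and passed (adjusted p = 0.00734). Within each array, HLA-DMA minus HLA-DMB was 1.52 to 1.94 in uninduced and 0.33 to 0.53 in induced samples. These ranges do not overlap, and the pair is among the 4 above, chosen after their values were seen. With both groups so near the filter, a fall of the HLA-DMB signal could be seen only in part.

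CD74 fell in the 1 of its 3 probe sets that gave a signal. Probe set 209619_at read 9.42, 9.49 and 9.52 on uninduced and 8.77, 8.95 and 8.97 on induced arrays, and every induced array was below every uninduced one. The means were 9.48 ± 0.049 and 8.90 ± 0.11 (SD, n = 3 each), a 1.496-fold fall (log2 difference -0.58, interval -0.76 to -0.40; limma, adjusted p = 4.86e-04). The CD74 probe sets 1567627_at and 1567628_at lay between 2.14 and 2.28 on all arrays and carry no information on a change. CD74 209619_at was thus well above the filter in both states. All CIITA probe sets lay below it, as did the other CD74 probe sets. Levels of different probe sets are not comparable, so expression of CD74 without CIITA is not shown.

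The classical chains were dim. HLA-DPA1, the alpha chain of HLA-DP, was tested through 211991_s_at, which read 4.34, 4.37 and 4.54 on uninduced and 3.95, 4.28 and 4.28 on induced arrays. The groups did not overlap, but the difference of -0.25 (-0.51 to 0.02) did not pass (limma, adjusted p = 0.0923). It passed after quantile normalization (-0.39, adjusted p = 0.0288) and in the fit with a replicate block (-0.25, adjusted p = 0.0499). The HLA-DPA1 probe sets 211990_at and 213537_at lay between 2.26 and 2.77 on all 6 arrays.

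HLA-DRA, the alpha chain of HLA-DR, stayed below the filter. Probe set 208894_at read 3.66, 3.37 and 3.05 on uninduced and 2.72, 2.67 and 2.83 on induced arrays. The uninduced arrays were all higher, and spread more widely. In a fit with no filter its difference was -0.62 (limma, adjusted p = 0.0487), and that p ranged from 8.42e-06 after median centring to 0.160 without induced replicate 1. It is not counted as a fall, since both groups lie below the filter. With 64 added the difference was -0.07 (adjusted p = 0.123). The second HLA-DRA probe set, 210982_s_at, lay at 2.58 on 1 array, uninduced replicate 2, and the remaining 5 gave 2.08 to 2.12. Its difference was -0.16 with that array and -0.0072 without uninduced replicate 2.

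The promoters of HLA-DMA and CD74, which fell, and of HLA-DMB, which did not pass, are shown. They let a reader compare genes that the RFX complex and CIITA are known to control. The capitals mark matching letters, which need not be X or Y boxes. The 250 bases before the RefSeq start are given 5' to 3' on the gene's strand (GRCh38.p14), in lower case, with capitals for the Y box letters ATTGG, the X box core letters GCAAC and the CRE core letters TGACG on either strand.
HLA-DMA (chr6:32953098-32953347, - strand): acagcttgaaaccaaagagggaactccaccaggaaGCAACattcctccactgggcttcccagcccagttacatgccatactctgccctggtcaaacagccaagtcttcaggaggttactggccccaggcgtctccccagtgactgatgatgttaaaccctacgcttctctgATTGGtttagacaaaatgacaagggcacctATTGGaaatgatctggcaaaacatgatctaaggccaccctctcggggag
HLA-DMB (chr6:32941029-32941278, - strand): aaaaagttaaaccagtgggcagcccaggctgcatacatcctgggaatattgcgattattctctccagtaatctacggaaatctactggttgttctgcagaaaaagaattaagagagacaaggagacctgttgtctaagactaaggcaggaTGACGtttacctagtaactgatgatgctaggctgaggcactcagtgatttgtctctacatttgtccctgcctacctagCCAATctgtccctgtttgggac
CD74 (chr5:150412911-150413160, - strand): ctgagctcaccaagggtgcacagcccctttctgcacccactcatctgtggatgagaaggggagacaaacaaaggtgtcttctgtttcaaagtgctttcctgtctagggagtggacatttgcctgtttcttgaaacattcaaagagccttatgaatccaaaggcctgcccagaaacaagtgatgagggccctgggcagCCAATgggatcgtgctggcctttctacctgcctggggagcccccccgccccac

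HLA-DMA holds ATTGG on the gene's strand, starting 79 and 49 bases before the start site, and GCAAC at 215 bases. HLA-DMB holds the reverse complement CCAAT, starting 22 bases before the start, and TGACG at 100 bases. CD74 holds CCAAT at 53 bases and neither of the other motifs. All 3 promoters thus carry the Y box letters, which 34.6% of the 35116 RefSeq promoter windows of the same length (250 bases before to 50 after the start) also hold. GCAAC occurs in 33.6% and TGACG in 24.6% of them. Of the 12 windows of the members, 4 hold the Y box letters, 5 GCAAC and 6 TGACG. The 3 promoters shown are thus a chosen part, and over all members the share with Y box letters is near that of all windows. The 12 mix class II genes and CD74 with their regulators: RFX5 has 3 windows, RFXAP 1 and RFXANK 3. The Y box letters lie in the windows of CD74, HLA-DMA and HLA-DMB and in a window of RFX5, and in none of HLA-DPA1. GCAAC followed on the same strand by ATTGG after 20 to 35 bases occurs in 0.521% of all windows and in 0 of the 12 windows of the members, which cover 7 of the 9 genes. CIITA and HLA-DRA are not among the matched genes. These are matches of letters and not measured binding. X boxes that deviate from GCAAC and Y boxes that deviate from ATTGG are not found by this search.

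The genes around these members in the class II region of chromosome 6 were called in both directions, at a share near that of all genes. RefSeq places 13 other protein-coding genes between HLA-DRA and HLA-DPA1, of which 6 were tested, and 2 rose and 2 fell, where 35.8% of all tested genes rose and 30.7% fell. The peptide transporter subunit TAP1 rose from 7.03 ± 0.044 to 8.46 ± 0.090 and the proteasome subunit PSMB9 from 6.76 ± 0.44 to 9.15 ± 0.15 (SD, n = 3 each). The partner transporter subunit TAP2 fell from 9.19 ± 0.068 to 8.53 ± 0.14 and the proteasome subunit PSMB8 from 11.56 ± 0.10 to 11.25 ± 0.12. These 4 act in presentation by MHC class I. The count of falls was 1 with no filter and without uninduced replicate 1, uninduced replicate 2, induced replicate 1 or induced replicate 3.

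The surrounding pathway was described with lists of 86 other genes, written from general knowledge and counted by each gene's brightest tested probe set. Earlier results of these data were known when the lists were chosen, so the counts and medians below describe them and test nothing. Of these 77 had a probe set of their own and 56 were tested, of which 33 rose, 9 fell and 14 did not pass, where 35.8% of all 9836 tested genes rose and 30.7% fell. The median log2 difference was 0.36 over the 56 genes and 0.02 over all tested genes. Of the other class II chains, 8 of 11 had a probe set of their own and only HLA-DRB1, the beta chain of HLA-DR, was tested. It read 6.50 ± 0.30 in uninduced and 6.54 ± 0.13 in induced samples (SD, n = 3 each) and did not pass (limma, adjusted p = 0.828). Its probe set ends in _x_at, a class that can bind related transcripts. The others, HLA-DPB1, HLA-DQA1, HLA-DQB1, HLA-DQB2, HLA-DRB4, HLA-DOA and HLA-DOB, did not exceed 3.71 on any array.

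**Figure D3:**
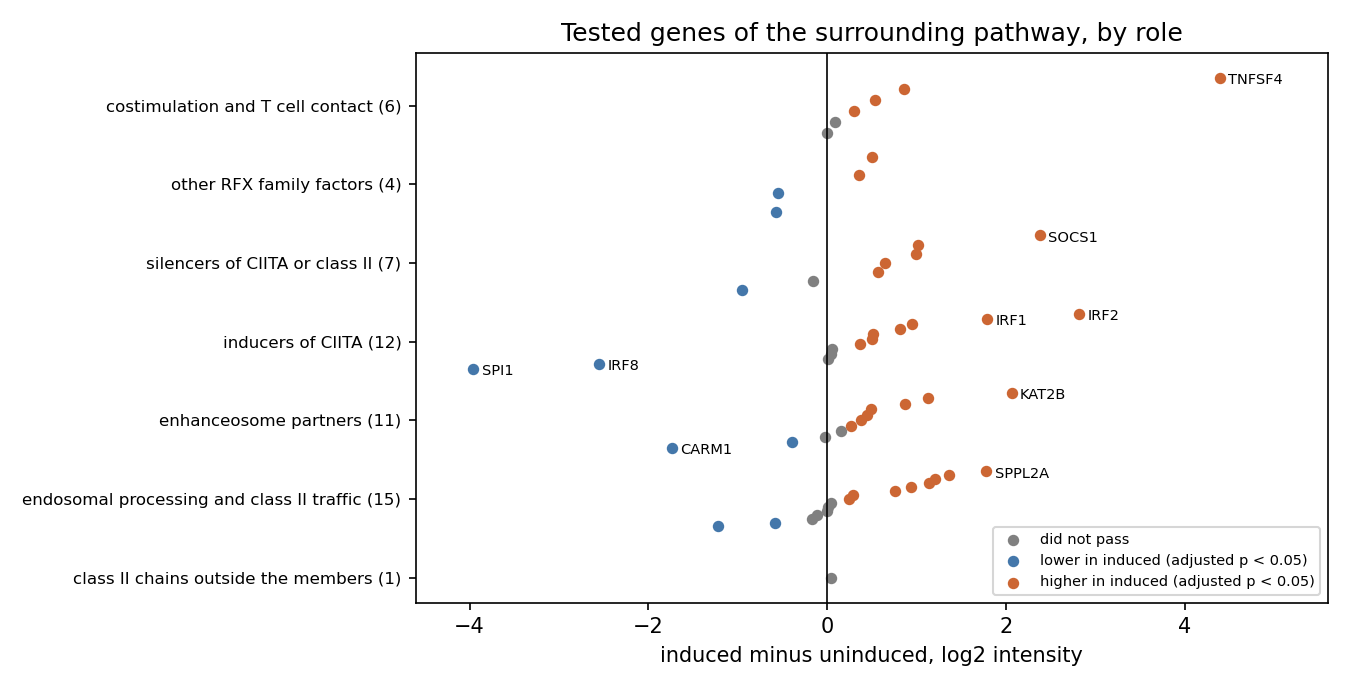
Each point is 1 of the 56 tested genes, placed by its log2 difference, induced minus uninduced, on the horizontal axis and grouped by role on the vertical axis with the number tested in brackets; genes with a difference beyond 1.5 in either direction are named. Inducers of CIITA spread from SPI1 at -3.96 to IRF2 at 2.82, and most points of the enhanceosome partners lie to the right of 0.

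Among factors known to act upstream of CIITA, 7 of 12 tested inducers rose and 2 fell. Over all tested genes 35.8% rose and 30.7% fell, and lists this small give no result about a role. SPI1 (PU.1), which acts on the myeloid CIITA promoter, fell from 7.12 ± 0.19 to 3.16 ± 0.33 (SD, n = 3 per group), which is at least 8.70-fold lower against the filter (limma, adjusted p = 4.32e-06). IRF8, its partner in myeloid cells, fell 5.86-fold from 12.23 ± 0.062. IRF1, which drives the interferon-responsive CIITA promoter, rose 3.46-fold in 1 of its 2 tested probe sets, from 5.95 ± 0.13 to 7.74 ± 0.23, and IRF2, which binds the same element, 7.05-fold. Of the 7 tested silencers 5 rose and 1 fell. SOCS1, an inhibitor of interferon signalling, rose at least 3.20-fold against the filter to 5.68 ± 0.46, while the methyltransferase EZH2 (1.48-fold) and the deacetylase HDAC1 (1.57-fold) rose less. TGFB1, a cytokine that damps class II expression, fell 1.93-fold. With 64 added to each intensity these calls held, but the log2 difference of SPI1 was -1.48 instead of -3.96. That of SOCS1 was then 0.65 instead of 2.38 and that of IRF1 1.14 instead of 1.79. For IRF2 the log2 difference ran from 1.95 to 2.91 over the alternatives, against 2.82 in the main fit.

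Of 11 partners of the class II promoter complex 7 rose and 2 fell, where 35.8% of all tested genes rose and 30.7% fell. The acetyltransferases KAT2B (4.18-fold) and EP300 (2.18-fold) rose, and so did the NF-Y subunit NFYA (1.40-fold), in 1 of its 4 tested probe sets. CARM1, an arginine methyltransferase and coactivator, fell 3.34-fold, from 9.43 ± 0.12 to 7.69 ± 0.10 (SD, n = 3 each). The relatives of RFX5 went both ways: RFX7 rose 1.28-fold in 1 of 2 tested probe sets and RFX1 1.42-fold, and RFX3 fell 1.49-fold. RFX2 fell 1.47-fold in its brightest probe set, while another of its 3 tested probe sets rose. RFX1 did not pass after quantile normalization (limma, adjusted p = 0.138), with median centring (0.0548) or with no filter (0.0685). RFX3 did not pass with no filter (0.1205) or without uninduced replicate 1 (0.0649), uninduced replicate 2 (0.0755) or induced replicate 2 (0.0792). With 64 added the log2 differences of RFX1, RFX2 and RFX3 were 0.20, -0.23 and -0.20 instead of 0.50, -0.55 and -0.57, and all passed.

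Of 15 tested genes of endosomal processing and class II traffic 8 rose and 2 fell. The shares over all tested genes were 35.8% and 30.7%. The intramembrane protease SPPL2A, which removes the last membrane stub of CD74, rose 3.44-fold from 9.64 ± 0.14 to 11.42 ± 0.055 (SD, n = 3 each; limma, adjusted p = 5.30e-06) with all 3 of its tested probe sets. MARCHF8, a ubiquitin ligase of the family that takes class II molecules off the surface, rose 2.58-fold and the protease CTSB 1.69-fold. CTSD, an aspartic protease, fell 2.33-fold. CTSS, the cathepsin that trims CD74 in antigen-presenting cells, read 11.41 ± 0.17 and 11.45 ± 0.20 and did not pass (adjusted p = 0.803); it is named beyond the 4 of its list for its role. Of 6 tested genes of costimulation 4 rose and 0 fell. TNFSF4 (OX40 ligand) rose at least 8.34-fold against the filter, CD58 1.82-fold, CD40 1.45-fold and CD83 1.23-fold, and CD80 and CD86 stayed below the filter. CD83 did not pass with no filter (0.0796) or without uninduced replicate 2 (0.0624), induced replicate 2 (0.0868) or induced replicate 3 (0.0663). CD40 did not pass with no filter (0.126), quantile normalization (0.143), median centring (0.0725) or without uninduced replicate 1 (0.0784), uninduced replicate 2 (0.0779), induced replicate 1 (0.0752) or induced replicate 3 (0.0767). With 64 added to each intensity the log2 difference of TNFSF4 was 1.49 instead of 4.40, that of MARCHF8 0.87 instead of 1.36 and that of CD40 0.30 instead of 0.54, and all passed.

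The called member probe set with the smallest adjusted p in each direction was compared with 17549 tested probe sets of other genes. The closest were found by the root mean square difference of log2 values over the 6 arrays, each centred on its own mean. For RFXAP 229431_at these were the ubiquitin-conjugating enzyme UBE2G2 (0.018), riboflavin kinase RFK (0.024) and the mitochondrial factor MTERF3 (0.029). UBE2G2 read 11.60 to 11.67 on uninduced and 10.73 to 10.85 on induced arrays. For RFX5 202963_at they were the corepressor TLE4 (0.014), the kinase TTK (0.015) and the chromatin protein HMGB1 (0.016). Their group differences were -0.83 to -0.86 for the RFXAP set and 0.31 to 0.32 for the RFX5 set. Such a likeness rests largely on a similar group difference, and shared regulation was not tested.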

How the data were processed

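Samples were grouped by their titles: 3 uninduced and 3 induced arrays. The deposited values are linear intensities, 1 per probe set and array. Per the submitters' processing notes, GCRMA produced them. Its version is not given in the sources used here, nor is any scaling after it. GCRMA models background from probe sequence and draws dim probe sets to a common low value. Values under 1 (6 in all) were raised to 1 before log2, and 62 control probe sets were left out. limma 3.58.1 in R 4.3.3 (lmFit, eBayes, two-sided) was fitted to the 20552 probe sets above the filter. Where both groups lay below the filter no fold is given, and where 1 did, the fold is a bound against a log2 value of 4.

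Members and lists were chosen with earlier results of these data known. Genes named from the pathway lists are the up to 4 called genes per list with the smallest adjusted p. Also named, without a call, are CTSS, CD80, CD86 and the other class II chains. Marker genes were named outside this rule. Gene symbols came from GEO's platform annotation, which gave 41091 probe sets 1 symbol, 1801 several and 11721 none, and promoters from RefSeq (GRCh38.p14). Deviations of same-numbered arrays from their group means correlated at -0.17, 0.00046 and 0.18. This shows no pairing by replicate number, but with so few arrays it cannot exclude one. The fit was tested on simulated data. Figures used matplotlib 3.10.9 in Python 3.11.15. Alternatives were no filter, a filter at 6, quantile normalization, median centring, 64 added to intensities, trended and robust eBayes, array weights, a replicate block, averaging the tested probe sets of each gene, and leaving out each array.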

Additional observations from a re-analysis of the deposited data

How the results depend on the processing

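The 5 member probe sets called (CD74 209619_at, HLA-DMA 217478_s_at, RFX5 202963_at and both of RFXAP) kept their direction and call under all 14 alternatives, except that HLA-DMA was not tested with the filter at 6. The count of members that rose was 1 in each, and that of falls ran from 3 of 5 with the filter at 6 to 6 of 9 after quantile normalization. The calls over all 20552 probe sets also turned there, from 7112 higher and 5733 lower to 6759 and 8077, and with median centring to 6579 and 7106. With the replicate block 1 rose and 5 fell, HLA-DPA1 211991_s_at (adjusted p = 0.0499) being added; in the pathway lists 33 rose and 8 fell. The numbers did not pair the samples, so no weight is put on the block. Pathway genes that rose numbered 27 to 33 and those that fell 7 to 12 over the alternatives, but the number tested changed too. With the filter at 6, 27 of 45 rose and 7 fell, and with no filter 28 of 77 rose and 7 fell. The main fit gave 33 of 56 and 9. The 12 falls came after quantile normalization and with median centring, where falls over all probe sets also grew. Shares over all genes are not given for each setting, so the ranges do not show stability. RFX5 202964_s_at and RFXANK changed sign without single arrays, at -0.072 to 0.034 and -0.079 to 0.039, neither passing the test. The within-array pairs and the named pathway genes were added after seeing the data; HLA-DMA minus HLA-DMB changed by -0.55 instead of -1.34 with 64 added. Signals near the filter limit HLA-DMB, HLA-DPA1 and RFX5 202964_s_at, and nothing can be said of CIITA below it.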
